A study of Mus musculus with 9 samples.

Results

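The genes described here are 33 members of the p53 pathway: Trp53, which encodes p53, its inhibitors Mdm2 and Mdm4, and 30 genes named for this work as p53 targets. They were followed in mouse LSK cells, the marrow fraction without lineage markers and with Sca-1 and Kit that holds stem cells and multipotent progenitors. A member was measured through the brightest of its probes that matched its symbol by RefSeq accession, and it counted as detected where every array of some group had that probe well above background. By this rule 30 of the 33 members were detected, among 13118 detected genes of 20660 with a probe. The rule that picks the members uses gene names, but the names were chosen with earlier results of these data known.

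LSK cells of C57BL/6 background carried a GFP-labelled vector and came from transplanted mice: 3 samples with DNMT3A R882H, 3 with wild-type DNMT3A (WT) and 3 with the empty vector (EV). All groups, EV included, therefore share transduction, transplantation and sorting. DNMT3A methylates cytosines in DNA, and R882H is a substitution in it known from acute myeloid leukaemia. The cells had their own Dnmt3a beside the vector, and no label gives the promoter of the vector, the age of the mice or whether samples were pools. The labels do not say whether replicates were separate mice or cultures, so the p-values reflect only how these samples vary, and that variation may be technical.

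As background, p53 is a transcription factor held low by Mdm2, a ubiquitin ligase, and by Mdm4, which binds its activation domain. DNA damage or other stress frees it, and it then binds its response element and activates genes of cell cycle arrest, apoptosis, DNA repair and metabolism. In haematopoietic stem cells p53 is known for roles in quiescence and in the response to irradiation. Because p53 is controlled largely through its protein, the level of Trp53 RNA is no measure of p53 activity.

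Letters that match a single p53 decamer are shown for the members whose promoter carries them, and a full response element was not searched for. A p53 response element is a pair of decamers, and the p53 decamer consensus was searched, by letters that read the same on both strands, in the 300 bases that run from 250 before to 50 after each RefSeq start (build GRCm38.p6). Of the 33 members 25 were in the promoter table, and 10 of these 25 (40%) had at least 1 decamer, against 9.55% of all 27025 genes of the table. A match describes letters and is no evidence of binding. Each line gives 30 bases in the sense of the gene, 5′ to 3′, with the decamer in capitals.
Gadd45a, chr6:67037428-67037457, minus strand: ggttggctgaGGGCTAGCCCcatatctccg
Bax, chr7:45467080-45467109, minus strand: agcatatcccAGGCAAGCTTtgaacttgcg
Aen, chr7:78895927-78895956, plus strand: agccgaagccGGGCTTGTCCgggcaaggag
Ei24, chr9:36797325-36797354, minus strand: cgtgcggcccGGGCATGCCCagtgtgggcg
Sesn1, chr10:41887256-41887285, plus strand: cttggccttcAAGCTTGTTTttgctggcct
Mdm2, chr10:117710925-117710954, minus strand: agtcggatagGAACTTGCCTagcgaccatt
Ccng1, chr11:40755452-40755481, minus strand: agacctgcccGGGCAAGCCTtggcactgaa
Trp53, chr11:69580274-69580303, plus strand: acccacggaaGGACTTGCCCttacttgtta
Polk, chr13:96519399-96519428, minus strand: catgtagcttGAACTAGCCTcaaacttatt
Gtse1, chr15:85859945-85859974, plus strand: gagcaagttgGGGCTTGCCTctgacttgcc
Counted from the annotated start as position 1, the decamers began between positions -231 (Polk) and 11 (Aen). The Aen stretch fell in the windows of 2 annotated starts. Gadd45a, Bax, Mdm2 and Ccng1, among the best known p53 targets, are in this set, as is Trp53 itself. Whether p53 acts on them through these letters was not tested.

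Some features of the arrays bear on all results. EV replicate 3 and WT replicate 3 lay apart from the others on the leading principal component of all genes (29.6% of variance), at 53.1 and 33.9 against -30.0 to 8.40 for the other 7 arrays. The same arrays were highest in the mean deviation of the 2 detected mature neutrophil markers, S100a9 and Camp. It was 2.22 on EV replicate 3 and 1.11 on WT replicate 3, against -0.99 to 0.0031 on the other 7. S100a9 had a log2 signal of 3.66 and 0.76 on these arrays, against -3.13 to -0.77 on the other 7. Camp had -1.64 and -0.98, against -2.02 to -1.12, so it was not high on EV replicate 3. The part of these markers in the results was not tested. EV replicates 1 to 3 and WT replicate 1 shared slide 1, WT replicates 2 and 3 with R882H replicates 1 and 2 shared slide 2, and R882H replicate 3 was on slide 3. No slide held both R882H and EV. Only 2 of the 9 columns of the authors' deposited value table held the array of the sample they are named for. The other 7 held another sample's array, 4 of them one of another group. Groups here follow the labels attached to the scanner files, and values under the grouping of the value table are given beside them.

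The cells carried RNA of their sort markers, with Kit and Ly6a (Sca-1) well above background on all 9 arrays. Cd34 and Ptprc, which are not part of the sort as described, were so too. Genes of mature cells were measured too. The levels of other marker lists were uneven over the groups. The mean deviation of 10 stem cell markers was 0.18 to 0.85 on R882H arrays, against -1.02 to 0.16 on WT and -1.07 to 0.41 on EV arrays. All 10 stem cell markers were higher in value in R882H than in WT and than in EV, none passing the test. The 7 detected of 8 megakaryocyte markers had 0.294 to 1.099 on R882H arrays, against -0.77 to -0.11 on WT and -1.15 to 0.14 on EV arrays, with Gp6 undetected. For 6 detected of 8 erythroid markers it was 0.086 to 0.52 on R882H arrays, against -0.24 to -0.11 on WT and -0.83 to 0.84 on EV arrays. For 9 of 10 granulocyte and monocyte markers the mean deviation was -0.88 to 0.11 with R882H, against -0.34 to 0.96 with WT and -0.36 to 1.20 with EV. The 5 detected of 8 B lineage markers had 0.37 to 1.14 with R882H, against -0.63 to 0.52 with WT and -1.03 to -0.32 with EV. Ebf1 and Ms4a1 were among the undetected B lineage markers. Of 8 T and NK lineage markers 4 were detected, Cd3e, Cd4, Lck and Nkg7, each well above background on all 9 arrays, and their mean deviation was -0.05 to 0.17 with R882H, against -0.19 to 0.10 with WT and -0.11 to 0.03 with EV. Cd3d and Cd8a were not well above background on any array. The 4 detected of 6 macrophage markers had -0.28 to 0.40 with R882H, against -0.37 to 0.14 with WT and 0.0066 to 0.15 with EV. The 2 detected of 6 mature neutrophil markers, Camp and S100a9, had -0.91 to 0.0031 with R882H, against -0.99 to 1.11 with WT and -0.17 to 2.22 with EV, and Ltf was not well above background on any array. The 8 mitosis markers ranged from -0.25 to 0.03 with R882H, from -0.10 to 0.33 with WT and from -0.12 to 0.24 with EV. The part of these lists in the results on p53 genes was not tested. In bulk RNA, fewer cells of a type and less RNA per cell cannot be told apart.

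**Figure D1:**
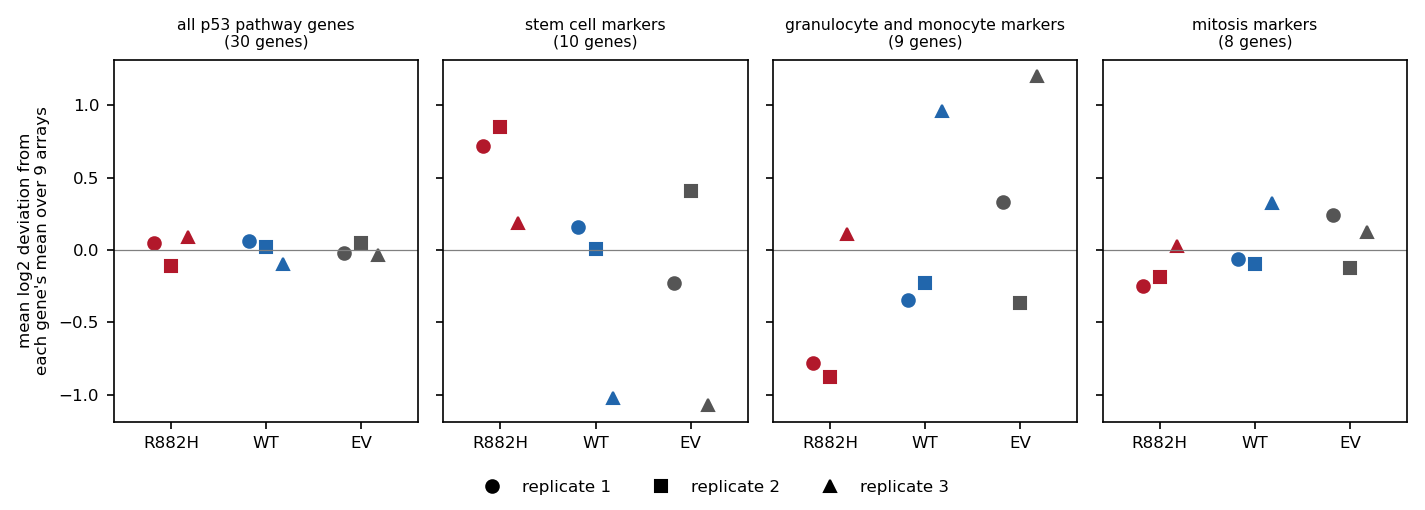
Mean log2 deviation of each array from the gene's mean over 9 arrays, for the detected p53 pathway genes and 3 marker lists. The p53 pathway genes lie between -0.11 and 0.09 on every array, while the stem cell markers span -1.07 to 0.85.

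Averaged over members, the p53 pathway genes differed little between conditions. Single members went in both directions, and such averages cancel differences of opposite sign. Over the 30 detected members the mean deviation was -0.11 to 0.09 on R882H arrays, -0.10 to 0.06 on WT arrays and -0.04 to 0.05 on EV arrays, so the 3 groups overlapped. The median log2 fold change was -0.06 for R882H over EV (14 higher, 16 lower), 0.07 for R882H over WT (17 higher, 13 lower) and -0.07 for WT over EV (13 higher, 17 lower). The medians over all 13118 genes were -0.02, -0.01 and 0.01. These medians of the members are of the size that a single array or another scaling moves them by, as given in the closing section.

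No member passed in any of the 3 comparisons (limma, Benjamini-Hochberg adjusted p under 0.05 over 13118 genes), where the share of all genes that passed was 0%. At an unadjusted p under 0.05 there were 3 of 30 members for R882H over EV, or 10%, beside 9.05% of all genes. Btg2 and Rrm2b were on the higher side (5.51% of all genes) and Perp on the lower side (3.54%). For R882H over WT there were 6 of 30, or 20%, beside 8.04% of all genes, with Plk2 and Sesn2 higher (3.65%) and Aen, Gtse1, Perp and Tigar lower (4.39%). For WT over EV there were 5 of 30, or 16.7%, beside 5.95%, with Aen, Gtse1 and Rrm2b higher (3.5%) and Polk and Sesn2 lower (2.45%). R882H over WT and WT over EV share the WT arrays, so the genes that appear in both are not seen independently. The members were named with earlier results of these data known, so these shares are no test of the set. The arrays of the groups did not overlap for 2 members in R882H over EV (18.4% of all genes), for 8 in R882H over WT (15.4%) and for 6 in WT over EV (10.1%).

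**Figure D2:**
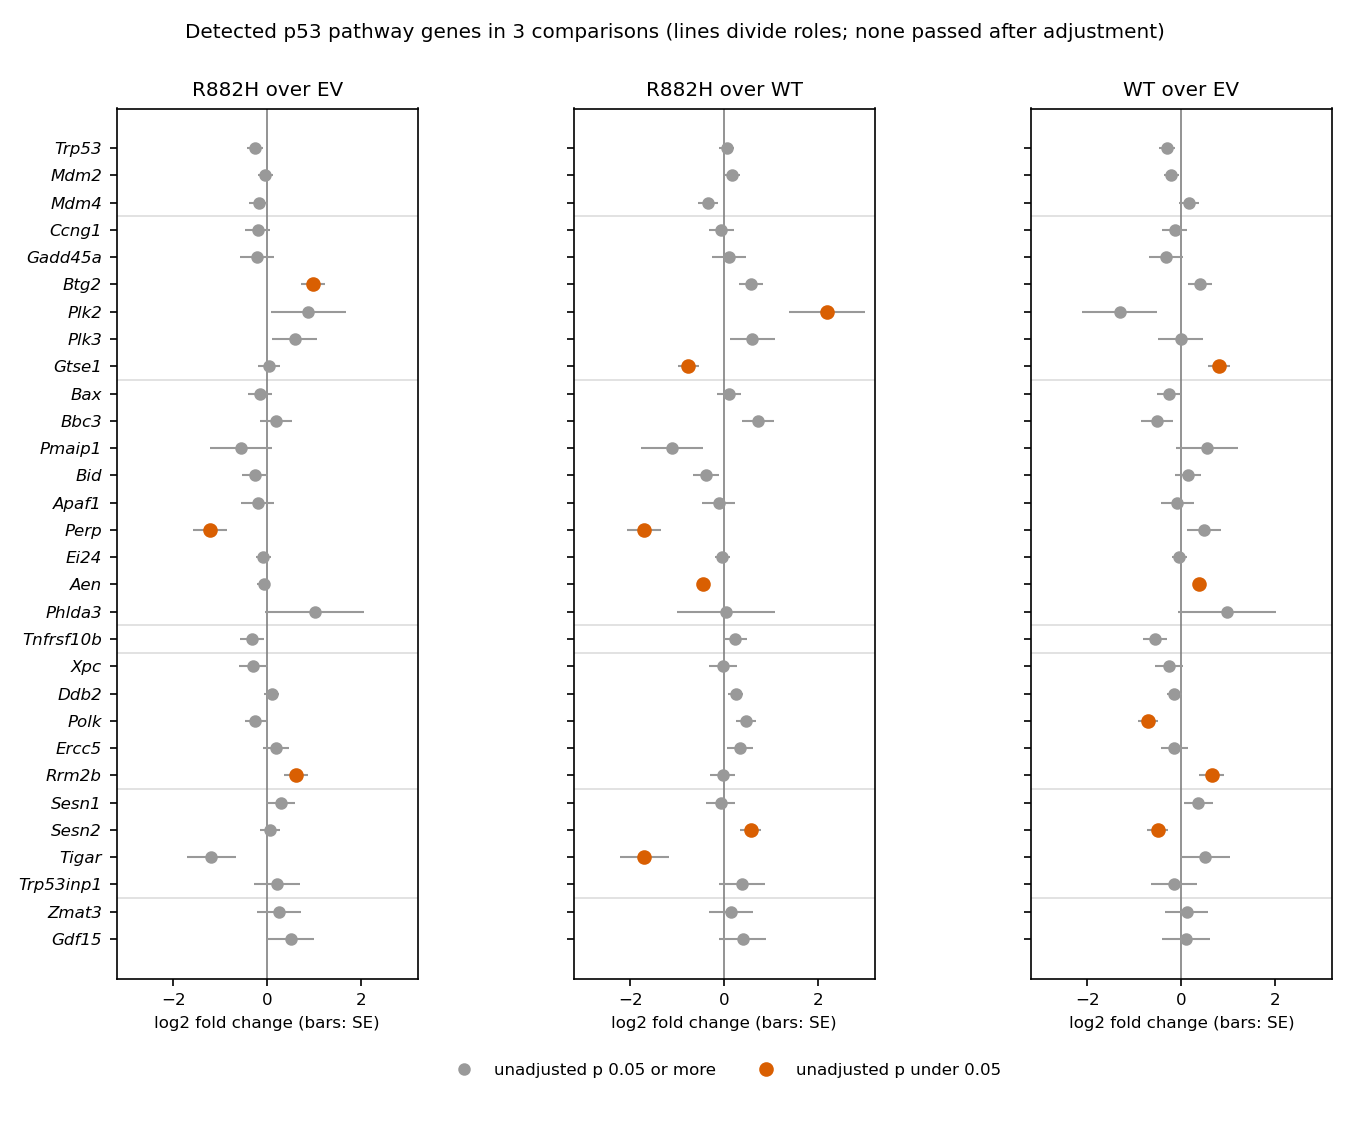
Log2 fold change with its SE (limma, 3 arrays a group) for the 30 detected members in 3 comparisons, divided by role. Most members lie within 1 log2 unit of 0. Perp and Tigar lie lowest in R882H over WT, at -1.70 each, and Plk2 highest, at 2.18, and no member passed after adjustment.

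Values below are log2 processed intensity relative to the 75th percentile of the array, called relative log2 signal. They compare samples for 1 probe and do not rank genes against each other.

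p53 and its inhibitors showed small differences in every comparison. Trp53 had 2.41, 2.24 and 2.61 on the R882H arrays, 2.22, 2.34 and 2.55 on the WT arrays, and 2.84, 2.62 and 2.57 on the EV arrays. All WT arrays lay below all EV arrays, narrowly so for WT replicate 3 beside EV replicate 3, while the R882H arrays overlapped with both. The differences were -0.26 ± 0.16 (SE) for R882H over EV, 0.05 ± 0.16 for R882H over WT and -0.31 ± 0.16 for WT over EV, with limma adjusted p of 0.615, 0.949 and 0.874. Mdm2, both a p53 target and its inhibitor, had 1.72, 2.03 and 1.87 with R882H, 1.77, 1.63 and 1.72 with WT, and 1.72, 1.90 and 2.14 with EV. The groups overlapped, and R882H differed from EV by -0.04 ± 0.16 and from WT by 0.17 ± 0.16, and WT from EV by -0.21 ± 0.16. Mdm4 had -0.11, -0.28 and 0.02 with R882H, 0.33, 0.47 and -0.13 with WT, and 0.26, -0.21 and 0.13 with EV. Its groups overlapped too, at -0.18 ± 0.20 for R882H over EV, -0.35 ± 0.20 for R882H over WT and 0.16 ± 0.20 for WT over EV. Of its 2 detected probes the other one gave -0.09, -0.01 and -0.08, so the sign of WT over EV was not shared. Single arrays moved the Mdm4 values: R882H over EV was -0.084 without EV replicate 1 and -0.32 without EV replicate 2, R882H over WT -0.22 without WT replicate 2 and -0.52 without WT replicate 3, and WT over EV 0.031 without EV replicate 2, 0.040 without WT replicate 2 and 0.34 without WT replicate 3. For Trp53, R882H over EV was -0.17 without R882H replicate 2. For Mdm2, R882H over WT was 0.091 without R882H replicate 2, and WT over EV -0.10 without EV replicate 3.

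Among the 6 members of cell cycle arrest and growth control, Btg2 and Plk2 stood highest with R882H and Gtse1 highest with WT. Btg2, an antiproliferative gene whose protein recruits the deadenylase complex to mRNA, had 0.78, 0.89 and 1.09 on R882H arrays, 0.55, 0.55 and -0.05 on WT arrays, and -0.08, 0.42 and -0.49 on EV arrays. Every R882H array lay above every WT and every EV array. The difference was 0.97 ± 0.26 for R882H over EV (limma adjusted p = 0.457), 0.57 ± 0.26 for R882H over WT (0.623) and 0.40 ± 0.26 for WT over EV (0.874). It was the member of smallest p in R882H over EV. Without WT replicate 3, R882H over WT was 0.37, and without EV replicate 3, R882H over EV was 0.75.

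Plk2, a polo-like kinase, had 2.47, 1.81 and 2.00 with R882H, 0.95, 0.84 and -2.04 with WT, and 1.35, 2.21 and 0.11 with EV. The R882H arrays lay above all WT arrays and overlapped with EV, and WT replicate 3 lay far below the rest. R882H exceeded WT by 2.18 ± 0.80 (limma adjusted p = 0.551), and by 1.20 without WT replicate 3. The values for R882H over EV and WT over EV were 0.87 and -1.31, each ± 0.80.

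Gtse1, whose protein is known in human cells to bind p53 and move it out of the nucleus, had 0.83, 0.39 and 0.44 with R882H, 1.24, 1.45 and 1.26 with WT, and 1.005, 0.28 and 0.28 with EV. The WT arrays lay above all others, and R882H and EV overlapped. R882H over WT was -0.76 ± 0.23 (limma adjusted p = 0.550), WT over EV 0.80 ± 0.23 (0.745) and R882H over EV 0.03 ± 0.23. Gtse1 is also a gene of dividing cells, and the 8 mitosis markers had medians of -0.24 for R882H over WT and 0.00085 for WT over EV. Their part in the result was not tested. Of the remaining members of this role, the cyclin Ccng1, the stress sensor Gadd45a and the kinase Plk3 overlapped in all 3 comparisons. Their differences ran from -0.32 (Gadd45a, WT over EV) to 0.59 (Plk3, R882H over WT).

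Among the 9 members of mitochondrial and caspase apoptosis, Perp and Aen stood apart between R882H and WT. Perp, a membrane protein of desmosomes and an apoptotic target of p53, had -0.66, -0.53 and -0.19 on R882H arrays, 1.28, 1.57 and 0.87 on WT arrays, and 0.31, 0.31 and 1.65 on EV arrays. All R882H arrays lay below all other arrays. R882H was 3.25-fold lower than WT (log2 -1.70 ± 0.36, limma adjusted p = 0.355) and 2.33-fold lower than EV (-1.22 ± 0.36, 0.501), and WT over EV was 0.48 ± 0.36. It was the member of smallest p in R882H over WT. EV replicate 3 was high, and without it R882H over EV was -0.77.

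Aen, a nuclease that cuts DNA during apoptosis, had 3.65, 3.55 and 3.74 with R882H, 4.15, 4.04 and 4.10 with WT, and 3.72, 3.76 and 3.69 with EV. Its arrays agreed within groups more closely than those of any other member, with a pooled SD of 0.07 log2 units, against a median of 0.37 over members and 0.29 over all genes. The WT arrays lay above all others. R882H over WT was -0.45 ± 0.13 (limma adjusted p = 0.550), WT over EV 0.37 ± 0.13 (0.778) and R882H over EV -0.08 ± 0.13. Its second detected probe gave -0.43, 0.34 and -0.09 in the same order.

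The BH3-only genes Bbc3, Pmaip1 and Bid, the effector Bax, the caspase activator Apaf1, Ei24 and Phlda3 overlapped between groups in every comparison. Bbc3 had the smallest p of these, in R882H over WT. It had 2.25, 2.96 and 3.47 on R882H arrays, 2.40, 2.46 and 1.68 on WT arrays, and 2.34, 2.84 and 2.91 on EV arrays. R882H over WT was 0.71 ± 0.34, R882H over EV 0.19 ± 0.34 and WT over EV -0.52 ± 0.34. Pmaip1 had 0.64, 0.85 and 2.69 with R882H, 2.11, 2.82 and 2.56 with WT, and 1.42, 1.16 and 3.28 with EV, so the R882H arrays and the EV arrays each spanned more than any difference between group means. Apaf1, Bax and Bid were highest on replicate 3 in all 3 groups, which is 10% of members, and 11.1% of all genes were so. Phlda3 had the widest spread of all members, a pooled SD of 1.54, and was not well above background on EV replicate 3.

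Of the death receptors, Tnfrsf10b, the mouse TRAIL receptor, was detected on all 9 arrays, and Fas and Eda2r were not well above background on any. Tnfrsf10b had -0.81, -0.68 and -0.62 with R882H, -0.93, -0.62 and -1.25 with WT, and -0.90, -0.11 and -0.11 with EV. The groups overlapped, with -0.33 ± 0.25 for R882H over EV, 0.23 ± 0.25 for R882H over WT and -0.56 ± 0.25 for WT over EV.

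**Figure D3:**
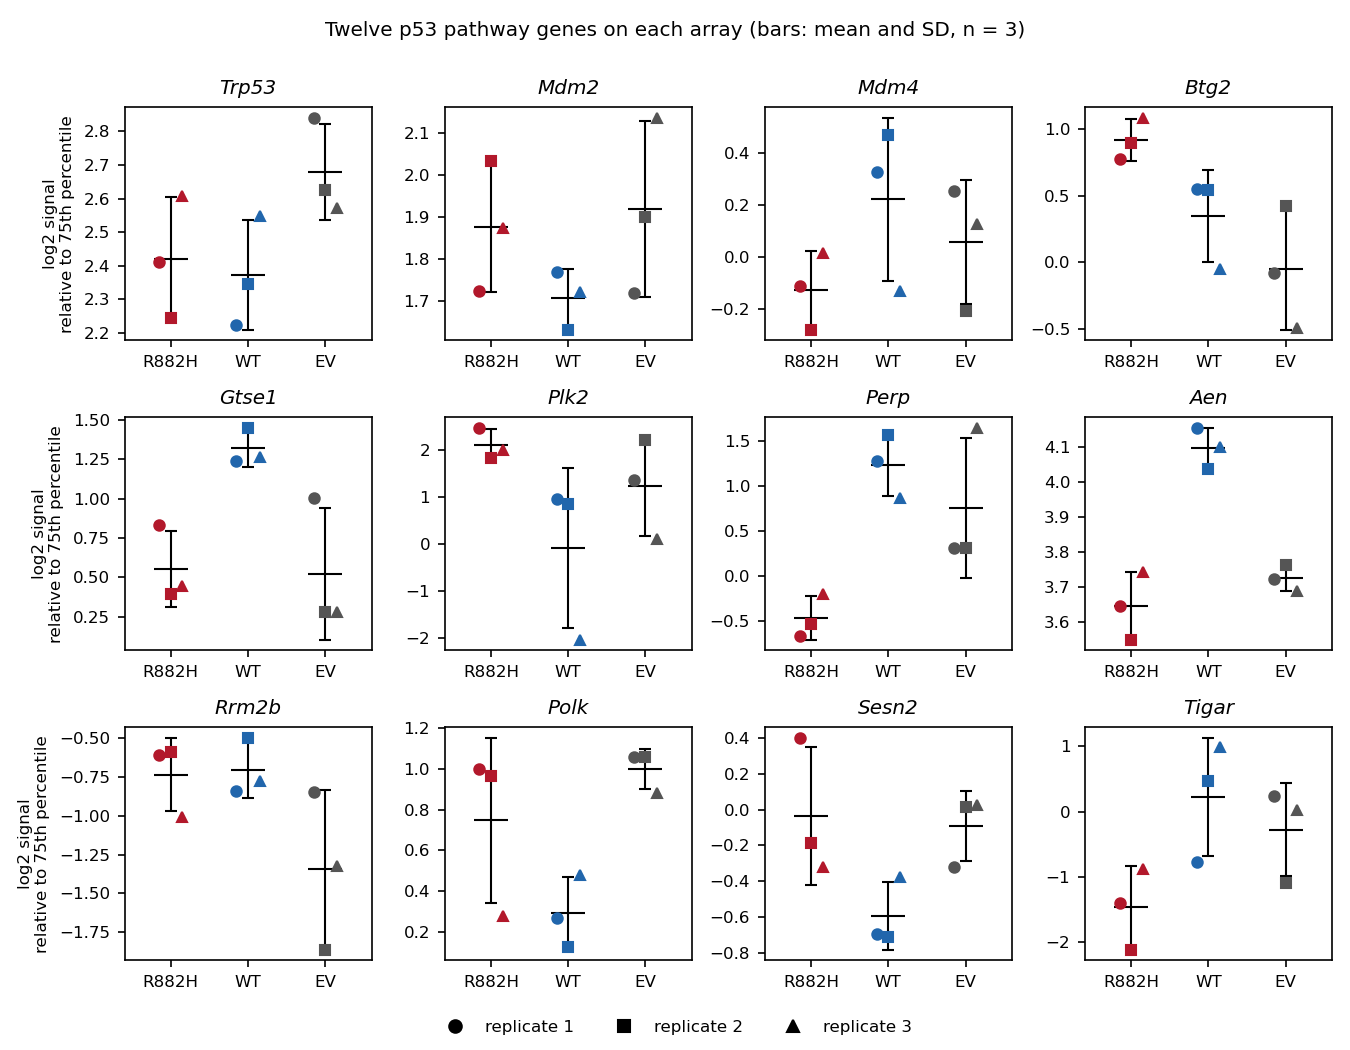
Relative log2 signal (log2 processed intensity minus the 75th percentile of the array) of 12 members on every array, with mean and SD of 3 arrays; each panel has its own scale. R882H points lie below all others for Perp and above all others for Btg2, and WT points lie above all others for Gtse1 and Aen.

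In DNA repair and nucleotide supply, Ddb2, Polk and Rrm2b had groups that did not overlap in 1 comparison each, and the probes of Polk and of Rrm2b disagreed in sign. Ddb2, which recognises UV damage, had 2.35, 2.23 and 2.29 with R882H, 2.21, 1.81 and 2.11 with WT, and 2.02, 2.25 and 2.30 with EV. R882H arrays lay above WT arrays by 0.24 ± 0.16 (limma adjusted p = 0.704), by 0.13 without WT replicate 2, and overlapped with EV. Ddb2 on R882H replicate 2 was only narrowly above WT replicate 1. Polk, a DNA polymerase that copies past lesions, had 0.999, 0.96 and 0.28 with R882H, 0.27, 0.12 and 0.48 with WT, and 1.06, 1.06 and 0.88 with EV.

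For Polk the WT arrays lay below all EV arrays, at -0.71 ± 0.22 for WT over EV (limma adjusted p = 0.767), with 0.46 ± 0.22 for R882H over WT and -0.25 ± 0.22 for R882H over EV. The second Polk probe gave 0.59 for WT over EV and -0.84 for R882H over WT, the opposite sign in both. Rrm2b, the p53-inducible subunit of ribonucleotide reductase, had -0.61, -0.59 and -1.01 with R882H, -0.84, -0.49 and -0.77 with WT, and -0.84, -1.86 and -1.32 with EV. The R882H arrays overlapped with those of EV. The WT arrays lay above all EV arrays, but narrowly, with -0.838 on WT replicate 1 against -0.843 on EV replicate 1. R882H over EV was 0.61 ± 0.26 (limma adjusted p = 0.541), WT over EV 0.64 ± 0.26 (0.809) and R882H over WT -0.03 ± 0.26. Its second probe gave the opposite sign in all 3 comparisons, -0.10, -0.54 and 0.44 in that order. Without EV replicate 2 the first 2 values were 0.35 and 0.38. Xpc and Ercc5 of nucleotide excision repair overlapped in every comparison, within -0.29 and 0.33.

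In metabolism, redox control and autophagy, Tigar stood lowest with R882H and Sesn2 lowest with WT. Tigar, a phosphatase that lowers glycolytic flux, had -1.40, -2.12 and -0.88 on R882H arrays, -0.77, 0.47 and 0.99 on WT arrays, and 0.23, -1.10 and 0.02 on EV arrays. R882H arrays lay below all WT arrays and overlapped with EV. R882H was 3.24-fold lower than WT (log2 -1.70 ± 0.53, limma adjusted p = 0.550) and differed from EV by -1.19 ± 0.53 (0.551), and WT over EV was 0.51 ± 0.53. Both of its probes had the same signs, and the second gave -1.67, -0.90 and 0.77.

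Sesn2, a stress-induced inhibitor of mTORC1, had 0.40, -0.19 and -0.32 with R882H, -0.70, -0.71 and -0.38 with WT, and -0.32, 0.01 and 0.03 with EV. The WT arrays lay below all others, but narrowly, with -0.378 on WT replicate 3 against -0.321 on R882H replicate 3 and -0.320 on EV replicate 1. R882H over WT was 0.56 ± 0.22 (limma adjusted p = 0.583), WT over EV -0.50 ± 0.22 (0.838) and R882H over EV 0.06 ± 0.22. Without R882H replicate 1 the value of R882H over WT was 0.34. Sesn1 and the autophagy gene Trp53inp1 overlapped in every comparison, and Dram1, a lysosomal protein, was well above background on 4 of 9 arrays (1 R882H, 2 WT, 1 EV) and was not tested. Zmat3, an RNA-binding protein, and the secreted Gdf15 also overlapped, and Gdf15 was not well above background on WT replicate 1 and EV replicate 1.

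**Figure D4:**
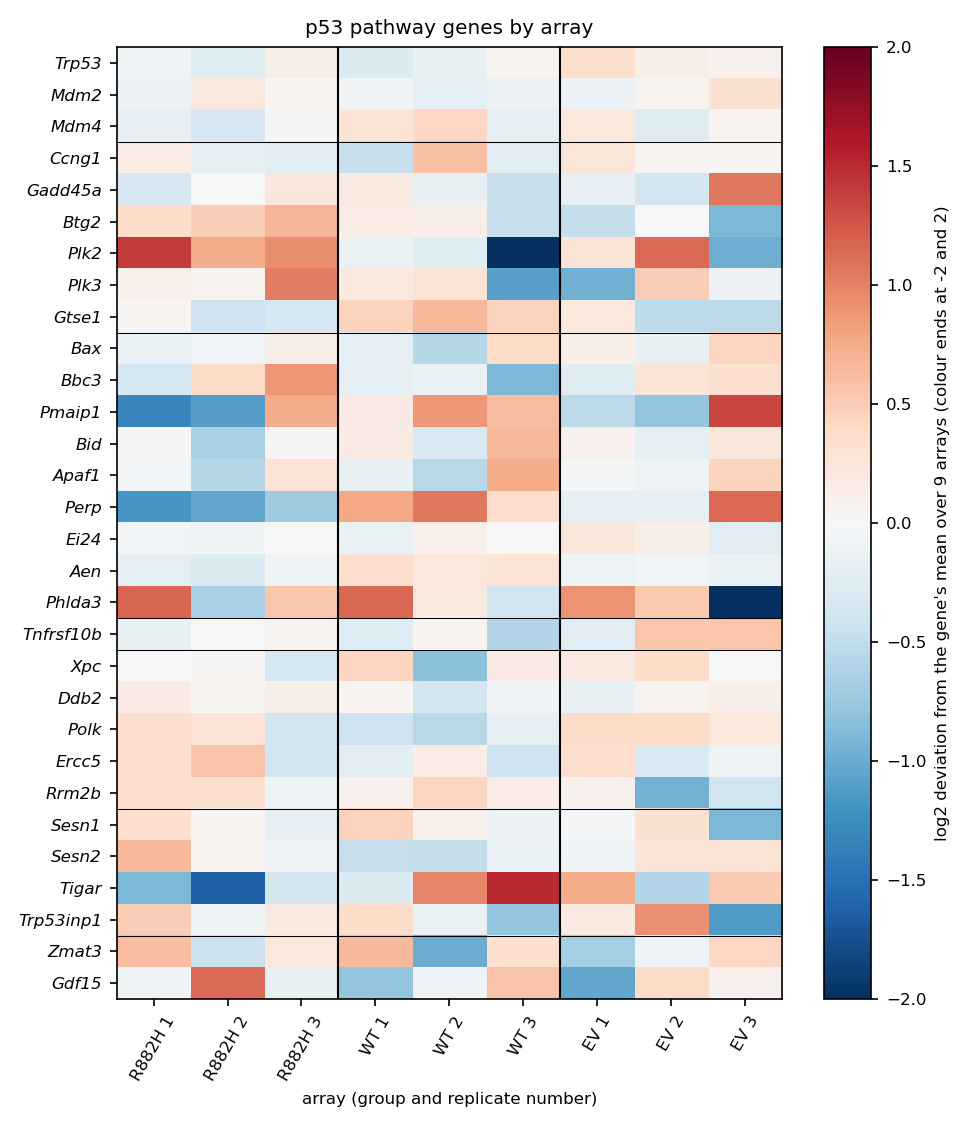
Log2 deviation of each detected member from its mean over the 9 arrays, in columns by group and replicate and in blocks by role. Perp is low on all R882H columns and Aen and Gtse1 are high on all WT columns, and most other genes overlap between groups.

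The letters before the start are set side by side for members whose arrays did not overlap between R882H and WT, a choice made after their values were seen. Of the 8 such members, Btg2, Plk2 and Sesn2 were higher in value in R882H than WT and Aen, Gtse1 and Tigar lower, and these 6 are shown, while Perp and Ddb2 have no entry in the promoter table. Each line holds the 110 bases before the most upstream start that the promoter table gives, in the sense of the gene, with the CCAAT box or its reverse complement ATTGG in capitals.
Btg2, chr1:134079156-134079265, minus strand: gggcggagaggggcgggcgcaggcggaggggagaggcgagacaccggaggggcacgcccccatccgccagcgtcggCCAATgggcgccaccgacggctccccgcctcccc
Aen, chr7:78895817-78895926, plus strand: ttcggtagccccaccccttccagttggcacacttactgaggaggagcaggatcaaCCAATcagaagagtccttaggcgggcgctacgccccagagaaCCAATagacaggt
Gtse1, chr15:85859597-85859706, plus strand: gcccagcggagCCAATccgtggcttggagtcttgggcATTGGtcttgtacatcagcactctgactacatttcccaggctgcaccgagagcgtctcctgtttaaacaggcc
Tigar, chr6:127109553-127109662, minus strand: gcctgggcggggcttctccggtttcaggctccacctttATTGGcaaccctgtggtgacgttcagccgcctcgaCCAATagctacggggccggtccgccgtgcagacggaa
Sesn2, chr4:132510457-132510566, minus strand: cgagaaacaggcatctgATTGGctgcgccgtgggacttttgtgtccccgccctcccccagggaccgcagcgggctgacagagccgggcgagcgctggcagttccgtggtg
Plk2, chr13:110394934-110395043, plus strand: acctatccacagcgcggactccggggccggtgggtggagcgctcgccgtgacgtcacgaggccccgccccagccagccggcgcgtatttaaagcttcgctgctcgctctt
The gene annotation begins Gtse1 at position 85859691, inside the stretch shown. Aen, Gtse1 and Tigar each held 2 such boxes, Btg2 and Sesn2 held 1 and Plk2 held 0. At least 1 box on either strand lay in 20.2% of all windows of this length. These counts describe the letters only.

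Further genes of the p53 pathway were described by lists written for this report. Cdkn1a, the cyclin-dependent kinase inhibitor p21 and the classical p53 target, had 2.12, 1.40 and 2.73 on R882H arrays, 1.21, 0.80 and 1.14 on WT arrays, and 1.49, 2.17 and 2.25 on EV arrays. The WT arrays lay below all others. R882H over WT was 1.04 ± 0.34 (limma adjusted p = 0.551), WT over EV -0.92 ± 0.34 (0.778) and R882H over EV 0.11 ± 0.34. Under the grouping of the value table these were 0.032, 0.10 and 0.13.

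No gene passed among 8 detected of 8 kinases and checkpoint sensors, 20 of 21 modifiers and partners of p53, or 27 of 30 further targets, in any comparison. The medians for R882H over EV were -0.11, -0.08 and 0.10, and for R882H over WT -0.04, -0.11 and 0.08. Of the kinases, the stress kinase Mapk14 had the smallest p in R882H over EV (-0.33 ± 0.15) and R882H over WT (-0.33 ± 0.15), beside Hipk2, which phosphorylates p53, at -0.33 ± 0.22 for R882H over EV and Atm, the kinase of double-strand breaks, at 0.21 ± 0.15 for R882H over WT. Hipk2 was -0.53 without R882H replicate 1, and Atm 0.115 without WT replicate 1.

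Cdkn2a, whose Arf product restrains Mdm2, was well above background on all 3 WT arrays and on none of the R882H or EV arrays. Only 1 of its 2 probes was detected, and that probe passed the filter through the WT group alone. Both tests against WT therefore depend on the filter and lend no support. With the processing used here, Cdkn2a was at least 2.06-fold lower in R882H than WT (limma adjusted p = 0.339). It was at least 1.72-fold higher in WT than EV (0.842). Such a bound sets the mean of the brighter group against, on each array of the dimmer group, the higher of the probe's own signal and the lowest signal well above background. The fitted log2 difference for R882H over WT was -2.10, but -0.42 with normexp background correction and -0.60 under the grouping of the value table, both smaller in size than the bound. The p53 relative Trp73 differed by 0.58 ± 0.19 for R882H over EV (limma adjusted p = 0.523), by 0.72 ± 0.19 for WT over EV (0.745) and by -0.14 ± 0.19 for R882H over WT. Every R882H and every WT array lay above every EV array. The histone chaperone Set differed by -0.43 ± 0.15 for R882H over WT, and by -0.23 with the mean of its 3 detected probes. Ak1, an adenylate kinase, had -1.74, -1.83 and -1.72 with R882H, -2.72, -2.53 and -3.02 with WT, and -2.52, -2.11 and -2.29 with EV, so that no R882H array overlapped with another group. R882H over WT was 0.99 ± 0.18 (limma adjusted p = 0.256) and R882H over EV 0.54 ± 0.18 (0.512). With normexp background correction the Ak1 values were 0.40 and 0.19. Trp53i13 differed by 0.69 ± 0.37 for R882H over EV, by 0.26 without EV replicate 3 and by 1.09 without EV replicate 1.

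Slide and group were partly confounded, so each difference was also computed with slide as a block, which for R882H over WT is the difference within slide 2 and for WT over EV that within slide 1. The value within slide 1 rests on a single WT array, WT replicate 1, against the 3 EV arrays. For R882H over WT, Perp was -1.81, Tigar -2.49, Aen -0.47, Gtse1 -0.75, Plk2 2.75, Sesn2 0.65, Btg2 0.59 and Ddb2 0.33, each with the sign of the fit without the block. For WT over EV, Aen was 0.43, Gtse1 0.72, Polk -0.73, Rrm2b 0.51, Sesn2 -0.60 and Trp53 -0.45. R882H over EV reached the block only through WT, at 1.19 for Btg2, -1.29 for Perp, 0.54 for Rrm2b and -2.99 for Tigar. Trp53 was -0.57 in R882H over EV, and in R882H over WT it turned sign to -0.12.

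The same differences were computed under the grouping of the value table. For R882H over EV, Btg2 was 0.34, Perp -0.59, Rrm2b 0.39 and Tigar -0.13. For R882H over WT, Perp was -0.80, Tigar -0.37, Btg2 0.37, Gtse1 -0.16 and Ddb2 0.059, and Aen 0.0070, Plk2 -0.55 and Sesn2 -0.20 turned sign. For WT over EV, Polk was -0.12, Rrm2b 0.37, Gtse1 0.013 and Trp53 -0.12, while Aen at -0.089 and Sesn2 at 0.24 turned sign. Among the inhibitors, Mdm4 was -0.26 for R882H over EV, -0.29 for R882H over WT and 0.036 for WT over EV, and Mdm2 0.080, 0.045 and 0.035 in that order. Trp53 was -0.097 for R882H over EV and 0.024 for R882H over WT. Of the further genes, R882H over EV was 0.28 for Trp73, -0.57 for Hipk2, -0.23 for Mapk14, 0.12 for Trp53i13 and 0.26 for Ak1. R882H over WT was -0.21 for Set, -0.17 for Mapk14, 0.115 for Atm and -0.0026 for Ak1. Perp was lower in value with R882H under both groupings, without passing. The groupings share arrays, so their signs are not independent. The value table's R882H group held R882H replicates 2 and 3 and WT replicate 3. Its WT group held WT replicate 2, R882H replicate 1 and EV replicate 3, and its EV group EV replicates 1 and 2 and WT replicate 1. Aen, Plk2 and Sesn2 kept their sign in R882H over WT under all settings run but those with the value table's grouping. Without the arrays numbered 3, an alternative added after seeing the data, Perp was -2.02 for R882H over WT and -0.91 for R882H over EV, Btg2 0.66 for R882H over EV, Plk2 1.25, Tigar -1.61, Aen -0.50, Gtse1 -0.73 and Sesn2 0.81 for R882H over WT.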

How the data were processed

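RNA of 9 LSK samples was measured on 1-colour Agilent mouse arrays. Per the labels' protocols, cDNA was amplified from a few nanograms of total RNA. The deposited intensity of each spot is the processed signal of Agilent Feature Extraction 10.10.1.1, background-subtracted and spatially detrended per array, per the file headers, which name the mm9 build for the probes. The authors' deposited value table holds log2 values, which match the scaled log2 signal of this report after centring each probe on its median. How the authors made it: not given in the sources used here.

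Each array had 62976 spots, 59305 of them not controls, for 55681 probes. Spots flagged as outliers (154 to 184 an array) were left out, no spot was saturated, and 53.4% to 64.8% of probes were well above background. The number of arrays limits the precision. Log2 signals were scaled by subtracting the 75th percentile over an array, and replicate spots were then averaged by probe. Symbols came from a RefSeq gene table through accessions: 27235 probes had 1 symbol, 28446 had none and 0 had several. The brightest detected probe of each gene was kept, and a probe counted as detected where every array of some group had it well above background. Tests used limma 3.58.1 in R 4.3.3 (lmFit, eBayes, 6 residual and 2.81 prior degrees of freedom) on all 9 arrays, with Benjamini-Hochberg adjustment over 13118 genes and a threshold of 0.05. The fit left out missing values of 3 genes. The code was tested on simulated data.

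Members and lists were chosen with earlier results of these data known. Values on every array are given for Trp53, Mdm2 and Mdm4, for the 5 members of smallest p in each comparison and for members whose R882H arrays did not overlap with another group, and Bbc3, Pmaip1 and Tnfrsf10b were added after their values were seen. From further lists the 2 genes of smallest p in R882H over EV and over WT are given, with Cdkn1a. Some marker genes are not reported here by name. Mean deviations of lists are averages over detected genes of the log2 deviation from each gene's mean over 9 arrays.

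Replicate numbers were checked for pairing through same-numbered deviations from the group means. Their correlations were 0.0885 to 0.279 for R882H and EV, 0.0713 to 0.239 for R882H and WT, and 0.116 to 0.326 for WT and EV. These ranges overlapped. The main fit used group alone in every comparison, and replicate number was a block only in an alternative. Alternatives covered background correction (normexp with an offset of 50, on median signals since mean signals were not used here), scaling, probe filters, the probe rule, slide, replicate number, array weights, the value table and each array left out. Promoter sequences are RefSeq's, build GRCm38.p6.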

Additional observations from a re-analysis of the deposited data

How the results depend on the processing

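Of 25 other settings, 22 to 24 gave a value for each named gene difference. No gene passed in a setting run, and 27 of 40 such differences kept their sign in every setting run for them, with a smallest adjusted p of 0.164 (limma, Perp in R882H over WT). With replicate number as a block, differences were the same, and members at an unadjusted p under 0.05 numbered 3, 8 and 5 for R882H over EV, R882H over WT and WT over EV, against 3, 6 and 5 without it, so the replicate block changed no call. Scaling by array median put the median of all genes at -0.18, -0.11 and -0.06 and that of members at -0.22, -0.021 and -0.14. The members' median for R882H over EV was 0.0077 with normexp, 0.019 with quantile normalization, -0.0026 with cyclic loess and 0.013 with the slide block. For R882H over WT it was 0.19 with the slide block and within slide 2, 0.018 by the value table and 0.017 by its grouping of arrays. For WT over EV it was 0.014 with the slide block and within slide 1, 0.017 by the value table and 0.024 by its grouping. Leaving out single arrays gave 0.0096 (without R882H replicate 1) to 0.14 (without WT replicate 1) for R882H over WT and -0.12 (without EV replicate 1) to 0.0091 (without EV replicate 2) for WT over EV. Members at an unadjusted p under 0.05 numbered 1 for R882H over EV with the slide block and by both forms of the value table, and 0 for R882H over WT by both forms. For WT over EV they numbered 1 with the slide block, within slide 1 and by both forms, 3 with the mean of detected probes, with array weights and without the arrays numbered 3, and 3 (without WT replicate 1 or EV replicate 3) to 6 with single arrays left out. Signs turned as follows, and the cause was not tested. For R882H over EV, Mdm2 was 0.031 with normexp, 0.037 with quantile normalization, 0.021 with cyclic loess, 0.052 with the slide block, 0.074 by the value table, 0.080 by its grouping, 0.069 without the arrays numbered 3 and -0.14 to 0.067 without single arrays. Cdkn1a was -0.049 with array medians, -0.069 without the arrays numbered 3 and -0.21 to 0.46 without single arrays, and Hipk2 was 0.22 with the slide block. For R882H over WT, Trp53 was -0.046 with array medians, -0.12 with the slide block and within slide 2, and -0.044 to 0.14 without single arrays. Atm was -0.099 with the mean of detected probes. By the value table and its grouping, R882H over WT was 0.0080 and 0.0070 for Aen, -0.55 and -0.55 for Plk2, -0.20 and -0.20 for Sesn2 and -0.0016 and -0.0026 for Ak1, and WT over EV was 0.028 and 0.035 for Mdm2, -0.096 and -0.089 for Aen, 0.23 and 0.24 for Sesn2 and 0.096 and 0.10 for Cdkn1a. Polk for WT over EV was -0.058 and Rrm2b 0.051 with the mean of detected probes, whose signs differ. The median SE of a difference was 0.232 log2 units.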
